A study of Mus musculus with 6 samples.

Results

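The genes described here are 40 genes of integrin adhesion and the actin cytoskeleton in the mouse microglial line BV2, out of 40202 genes listed in the deposited table. They were chosen by name: the focal adhesion kinase gene Ptk2b with 2 further kinases, 7 integrin subunits, 6 adaptors of the adhesion plaque, 5 small GTPases and exchange factors, 4 factors of branched actin nucleation, 7 genes of actin filaments and contraction, and 8 regulators of actin turnover and membrane linkage. Total RNA was sequenced in 3 untreated control samples and in 3 samples exposed to human full-length apolipoprotein E4 protein (FL-ApoE4) at 25 µg/ml for 5 h. All 6 samples are cultures of the BV2 line, an immortalised line whose strain background is given as C57BL/6, grown in serum. The untreated samples are not said to have received the vehicle of the protein, and no source used here states that the replicates were separate cultures. The p-values therefore reflect how far these samples scatter, and that scatter may be technical.

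Integrins are paired receptors of an alpha and a beta chain that bind matrix proteins or ligands on other cells. Talin and kindlin switch them on, paxillin, vinculin and zyxin build the plaque that ties them to actin, and the related kinases FAK (Ptk2) and Pyk2 (Ptk2b) relay the signal together with Src. Small GTPases then steer the filaments: Rac and Cdc42 drive branching through the WAVE and WASP proteins and the Arp2/3 complex, and RhoA drives contraction through myosin II. In microglia and other macrophages this machinery serves process movement, migration and engulfment, and Pyk2 is the family member typical of blood-derived and nervous tissue cells. Ptk2b also lies at a locus linked to late-onset Alzheimer's disease in people.

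Sequence of both focal adhesion kinases is shown because the levels of their transcripts lay on opposite sides of control, and because it marks the site through which each binds Src. The stretches are 63 coding bases of the GENCODE M21 transcript with the longest coding sequence, 5′ to 3′. Capitals mark the codon of the tyrosine that each kinase phosphorylates on itself, found at codon 402 of 1009 in Ptk2b (chromosome 14) and at codon 397 of 1055 in Ptk2 (chromosome 15).
Ptk2b: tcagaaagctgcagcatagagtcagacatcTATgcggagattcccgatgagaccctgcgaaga
Ptk2: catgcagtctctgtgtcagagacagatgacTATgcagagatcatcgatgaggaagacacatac
The coding sequences of the pair were 59.5% identical over 2991 aligned bases. No stretch of 50 bases in either transcript occurred in a transcript of another gene.

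The libraries held 45700128 to 54965393 reads assigned to genes, so that for well expressed genes the spread between libraries and not counting error set the precision. The members took 1.58% to 1.62% of reads in controls and 1.66% to 1.70% with FL-ApoE4. The defining markers of the labelled cell type were present, with Csf1r at 47193 ± 1926, Itgam at 6866 ± 1100 and Aif1 at 610 ± 62.5 normalised reads in controls (mean ± SD, n = 3). All 10 microglial and macrophage markers passed a mean of 10 normalised reads, and their summed level was 196221 to 201055 in controls against 218058 to 225015 with FL-ApoE4. Of 7 lists of other cell types, those of T cells, fibroblasts and neutrophils summed to at most 15.2 normalised reads in any library, those of astrocytes and neurons to 52.2 to 90.1 and 59.3 to 85.7, that of oligodendrocytes to 1151 to 1295 and the endothelial list to 3009 to 4772, of which Kdr made up 4047 in the control mean and Mbp 1097 of the oligodendrocyte sum. Aqp4, Cd3e, Cd3g, Trac, Ly6g and S100a9 were listed at 0 in all 6 libraries. The part of these markers in the results below was not tested.

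A pair of libraries stood apart from the rest of its group. Control replicate 1 was at least 0.32 on the log2 scale above the other controls in 6 members and that far below in 0, whereas over all 14079 genes tested 13.0% lay that far above and 14.3% that far below. By the same measure FL-ApoE4 replicate 1 was above the other FL-ApoE4 libraries in 1 member and below in 3, against 5.22% and 10.2% of all genes. In either direction, control replicate 3 was also that far from its group in 6 members and control replicate 2 in 4. The median absolute log2 difference over all genes tested was 0.16, 0.095 and 0.11 for control replicates 1 to 3. For FL-ApoE4 replicates 1 to 3 it was 0.12, 0.083 and 0.084. FL-ApoE4 replicate 1 differed from the other FL-ApoE4 libraries with transcript length: over the 40 members its log2 difference had a Spearman correlation of -0.79 with transcript length, against 0.10 for control replicate 1 (a description across genes of 1 library each, which share depth and preparation). Results are given with all 6 libraries. Those without control replicate 1 stand beside the genes it moved most, and the plot of fold changes gives them for all 40.

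**Figure D1:**
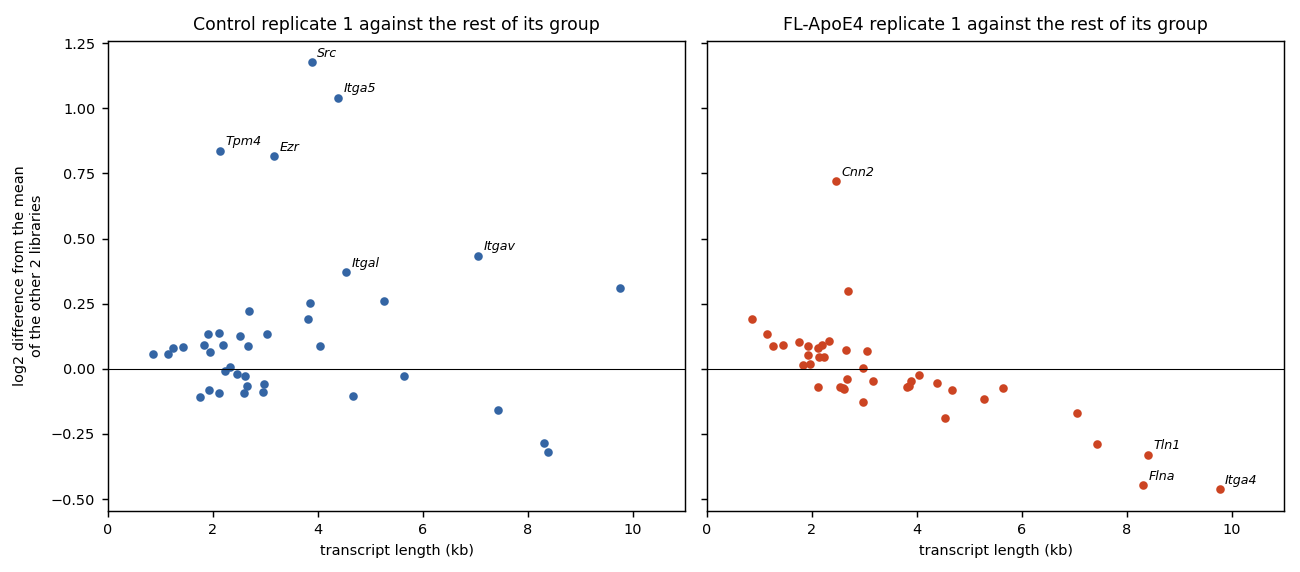
Log2 difference of control replicate 1 (left) and FL-ApoE4 replicate 1 (right) from the mean of the other 2 libraries of its group, for each of the 40 genes against transcript length in kb; genes at least 0.32 away are named. Src, Itga5, Tpm4 and Ezr lie highest on the left, and the long transcripts Itga4, Flna and Tln1 lie lowest on the right.

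The study set cells given the whole protein against cells given none. Among the 40 genes, Ptk2b stood furthest from control on the higher side at 1.40-fold and Itgav furthest on the lower side at 0.741-fold. In bulk RNA, fewer cells of a kind and less RNA per cell cannot be told apart. Limma, the linear model run across all genes on log2(value + 1), called 0 of 40 members at an adjusted p under 0.05 (Benjamini-Hochberg), as it called 0.0% of all genes tested. An unadjusted p under 0.05 was found for 9 members, against 13.1% of all genes tested, of which 6 were higher (15.0%, against 6.81%) and 3 lower (7.50%, against 6.33%). The edgeR quasi-likelihood test called 0 members (9 at an unadjusted p under 0.05) and 0.0% of all genes. DESeq2 called 3 members, Ptk2b and Rac2 higher and Itgav lower, against 2.63% of all genes, 1.36% higher and 1.27% lower. For 9 members no treated library fell within the control range, against 21.9% of all genes. Of these 6 were higher and 3 lower, against 11.1% and 10.9%, so the share on the lower side, 7.50%, was under the background. Below, a gene said to lie apart from control is one whose groups did not overlap. That was about as common among the members as over all genes, and no such gene passed limma with all libraries. The median log2 difference was 0.04 over the 40 members and 0.0011 over all genes tested.

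**Figure D2:**
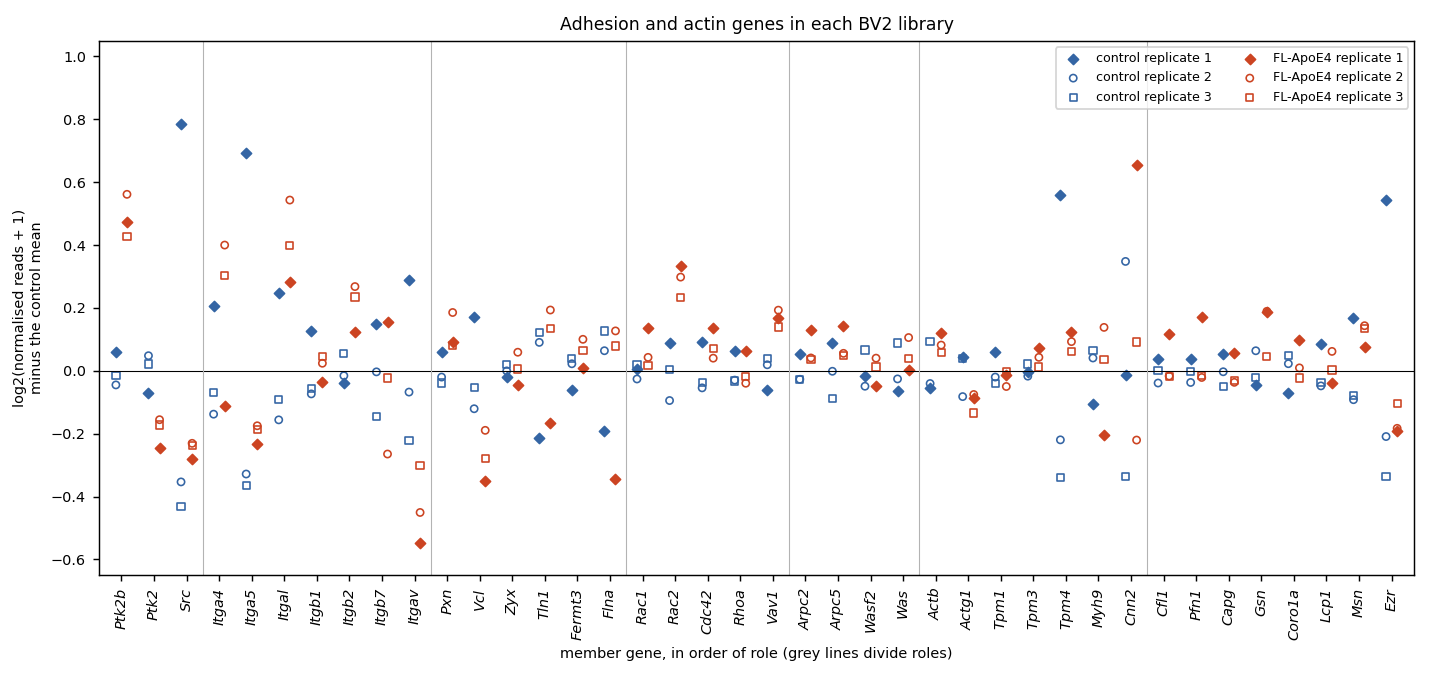
Log2(normalised reads + 1) of each of the 40 genes in each library, as a difference from the control mean, with genes in order of role; filled diamonds are replicate 1 of each group. The 3 FL-ApoE4 libraries lie above all controls for Ptk2b, Itgal, Itgb2, Pxn, Rac2 and Vav1 and below all controls for Ptk2, Itgav and Vcl, and control replicate 1 lies far above the other controls for Src, Itga5, Tpm4 and Ezr.

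Without control replicate 1, limma called 5 of 40 members, all of which rose: Ptk2b, Itgal, Rac2, Tpm4 and Msn. That is 12.5% of the members, against 2.93% of all genes called higher, and 0 members were called lower, against 1.69%, with 4.62% of all genes called in either direction. In that fit 16 members had an unadjusted p under 0.05. Control replicate 1, set apart from these same data, lay above the other controls in all 5 called members, from 1.06-fold (Ptk2b) to 1.79-fold (Tpm4). Leaving it out therefore raises these estimates. Its median log2 difference from the other controls was 0.08 over the members and -0.0032 over all genes tested. The excess of limma calls on the higher side thus depends on which library is left out. On the recovered reads and without the same library, edgeR called these 5 higher and Ptk2 lower, against 4.91% of all genes, 3.01% higher and 1.9% lower. DESeq2 called these 6 and Itgav, lower, against 6.81% of all genes, 3.86% higher and 2.95% lower. This fit rests on control replicates 2 and 3 alone, which were alike for most members, so its p-values may be too small. The authors' deposited table, made with all 6 libraries, called 4 of the 39 members that have an adjusted p there, Ptk2b, Itgal and Rac2 higher and Itgav lower, against 2.85% of all genes with one.

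Kinases are taken first. Ptk2b, the calcium-responsive focal adhesion kinase, was at 5762, 5364 and 5479 normalised reads in control replicates 1 to 3 and at 7674, 8165 and 7444 in FL-ApoE4 replicates 1 to 3. The lowest treated library thus lay well above the highest control. The log2 fold change was 0.49 ± 0.06 (SE), with a 95% interval from 0.36 to 0.62 and a limma adjusted p of 0.0666, so the gene missed the threshold. By p-value it ranked number 5 of 14079 genes in that fit and number 6 in the authors' deposited table, where its adjusted p was 1.69e-08. Leaving out any library in turn gave log2 fold changes from 0.45 to 0.52, and without control replicate 1 it rose by 0.52 (limma adjusted p = 0.0021). Control replicate 1 was at 1.06-fold the other controls in this gene.

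Ptk2, which encodes FAK, the widely expressed relative, was at 2984, 3240 and 3182 normalised reads in controls and at 2643, 2814 and 2781 with FL-ApoE4. All treated libraries lay below all controls, by less than for Ptk2b. Its log2 fold change was -0.19 ± 0.06 (limma adjusted p = 0.233), and -0.23 without control replicate 1 (adjusted p = 0.0516). Within each library, the ratio of Ptk2b to Ptk2 reads was 1.93, 1.66 and 1.72 in controls and 2.90, 2.90 and 2.68 with FL-ApoE4. The ratio uses no length or library scaling. Its groups did not overlap, which follows from the opposite separations of both genes and adds no support of its own. Per kb of transcript, Ptk2b was at 1372 and Ptk2 at 671 normalised reads in the control mean.

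Src, the kinase that docks on both, was at 3809 normalised reads in control replicate 1, at 1730 and 1639 in the other controls, and at 1818, 1884 and 1874 with FL-ApoE4. One library thus carried the difference, at 2.26-fold the other controls, and the treated libraries lay above the other controls and below it. The log2 fold change was -0.25 ± 0.29 with all libraries and 0.14 without control replicate 1, neither of which passed limma (adjusted p = 0.787 and 0.221).

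Integrins fell into genes apart from control, genes close to it and genes set by single libraries. Itgal, the alpha chain of the leukocyte integrin LFA-1, which binds ICAM proteins, was at 9320, 7045 and 7365 normalised reads in controls and at 9539, 11439 and 10344 with FL-ApoE4. Control replicate 1 lay just under the lowest treated library. The log2 fold change of Itgal was 0.41 ± 0.11 (limma adjusted p = 0.219), and the gene rose by 0.53 without control replicate 1 (adjusted p = 0.00598). Its partner Itgb2, the beta chain shared by the leukocyte integrins, was at 7412, 7538 and 7914 normalised reads in controls and at 8308, 9174 and 8966 with FL-ApoE4. The groups did not overlap, with a log2 fold change of 0.21 ± 0.06 and a limma adjusted p of 0.205. Its log2 fold change was 0.19 without control replicate 1 (adjusted p = 0.108).

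Itgav, the alpha chain of the integrins that bind vitronectin and activate latent TGF-beta, was the member furthest below control. Its level was 14044, 10965 and 9850 normalised reads in controls and 7869, 8408 and 9321 with FL-ApoE4. Every treated library was below every control, by a narrow margin between FL-ApoE4 replicate 3 and control replicate 3. The log2 fold change was -0.43 ± 0.13 (limma adjusted p = 0.233) and -0.29 ± 0.08 without control replicate 1 (adjusted p = 0.0793), a value smaller by over 1.5 times on the log2 scale when FL-ApoE4 is set against the remaining controls only. DESeq2 called the gene with all libraries (adjusted p = 0.04). Of the ratios between integrin chains that form a receptor, those of Itgal to Itgb2, Itga4 to Itgb1, Itga4 to Itgb7 and Itga5 to Itgb1 overlapped between groups. That of Itgav to Itgb1 did not, at 0.268 to 0.337 in controls against 0.211 to 0.237 with FL-ApoE4. Itgav alone already separated the groups, and how often ratios of other gene pairs do so was not examined.

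Itga4, the alpha chain of VLA-4, which binds VCAM1 and fibronectin, was at 24457, 19249 and 20175 normalised reads in controls and at 19615, 27946 and 26116 with FL-ApoE4. FL-ApoE4 replicate 1 lay among the controls, at 0.726-fold the other treated libraries, and this transcript is the longest of the members at 9.77 kb. The log2 fold change of 0.20 ± 0.14 (limma adjusted p = 0.618) became 0.35 without that library, 0.30 without control replicate 1, 0.13 without control replicate 2 and 0.096 without FL-ApoE4 replicate 2. Itga5, the fibronectin receptor chain, repeated the pattern of Src. It was at 21935 normalised reads in control replicate 1, at 10800 and 10521 in the other controls, and at 11536, 12013 and 11915 with FL-ApoE4. Its log2 fold change was -0.20 ± 0.26 with all libraries and 0.15 without control replicate 1 (limma adjusted p = 0.816 and 0.116).

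Itgb1, the beta chain that pairs with both Itga4 and Itga5, was the most abundant integrin per kb of transcript, at 10030 normalised reads in the control mean. It differed by 0.011 ± 0.06 on the log2 scale, with a 95% interval from -0.14 to 0.16. Itgb7, the alternative partner of Itga4 in gut-homing lymphocytes, was at 234 to 287 normalised reads in controls and at 215 to 288 with FL-ApoE4, and its groups overlapped throughout. Of the 7 integrin genes, 2 had an unadjusted p under 0.05 on the higher side and 1 on the lower.

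**Figure D3:**
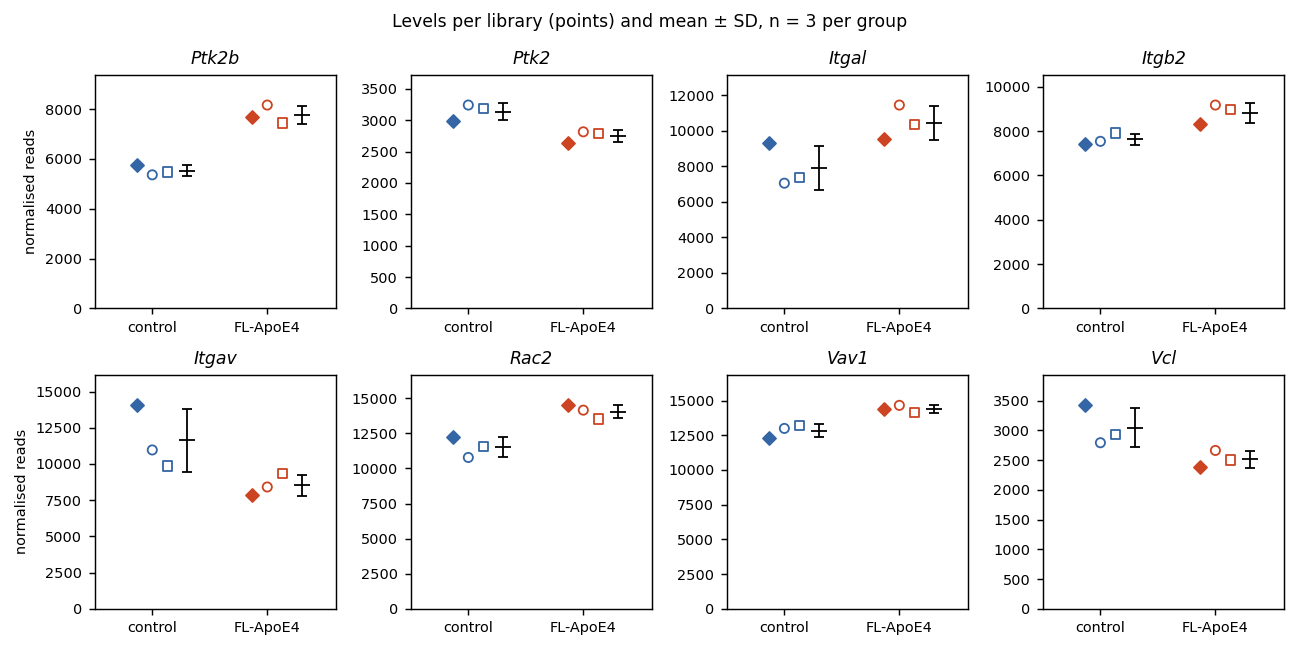
Normalised reads of 8 genes in each library (points; filled diamond, replicate 1; circle, replicate 2; square, replicate 3) with the group mean ± SD (n = 3). The 8 were picked from the 9 members whose groups do not overlap, so the separation follows from the choice (21.9% of all genes tested did not overlap). The gap is widest for Ptk2b, at 5364 to 5762 in controls against 7444 to 8165 with FL-ApoE4.

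Among the adaptors, the groups did not overlap for vinculin and paxillin, in opposite directions, as for 21.9% of all genes tested. Vcl, which encodes vinculin, the protein that braces the plaque under tension, was at 3421, 2792 and 2929 normalised reads in controls and at 2382, 2662 and 2501 with FL-ApoE4. The treated libraries were all lower, by a log2 fold change of -0.27 ± 0.09 and a limma adjusted p of 0.253. Without control replicate 1 it was -0.19 (adjusted p = 0.147). Pxn, which encodes paxillin, the scaffold bound by FAK and Pyk2, was at 5138, 4866 and 4802 in controls and at 5262, 5610 and 5214 with FL-ApoE4. Its treated libraries were all higher, though the lowest exceeded the highest control only narrowly, and the log2 fold change was 0.12 ± 0.05 (limma adjusted p = 0.408).

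Zyx, which encodes the tension sensor zyxin, was at 2137 to 2195 normalised reads in controls against 2101 to 2256 with FL-ApoE4, and differed on the log2 scale by 0.0072 ± 0.05. Fermt3, the kindlin of blood cells, differed by 0.06 ± 0.05. Talin 1 and filamin A, the long rod proteins that link integrins to actin, had wide spreads in both groups. Tln1 was at 13223, 16316 and 16676 normalised reads in controls and at 13659, 17523 and 16816 with FL-ApoE4. Flna was at 36078, 43047 and 44958 in controls and at 32430, 44969 and 43488 with FL-ApoE4. In each gene both replicates numbered 1 were the low libraries of their group. The log2 differences were 0.05 ± 0.12 for Tln1 and -0.05 ± 0.14 for Flna, and each changed sign between settings.

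Among the small GTPases and the exchange factor, Rac2 and Vav1 lay apart from control and Rac1, Cdc42 and Rhoa overlapped with it. Rac2, the Rac of blood cells that serves the phagocyte oxidase and migration, was at 12253, 10786 and 11555 normalised reads in controls and at 14502, 14160 and 13526 with FL-ApoE4. The groups did not overlap. Its log2 fold change was 0.29 ± 0.06 (limma adjusted p = 0.151). It rose by 0.33 without control replicate 1 (adjusted p = 0.0108). Rac1, the ubiquitous relative, was at 14358, 14056 and 14519 in controls and at 15727, 14742 and 14471 with FL-ApoE4, with overlapping groups and a log2 difference of 0.07 ± 0.05. The ratio of Rac2 to Rac1 reads within a library was 0.767 to 0.853 in controls against 0.922 to 0.961 with FL-ApoE4. Rac2 alone already lay apart, and how often ratios of other gene pairs separate was not examined.

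Vav1, the exchange factor that loads Rac in blood cells, was at 12304, 12996 and 13187 normalised reads in controls and at 14420, 14659 and 14127 with FL-ApoE4. All treated libraries were higher, with a log2 fold change of 0.17 ± 0.05 and a limma adjusted p of 0.219. Its log2 fold change was 0.14 without control replicate 1 (adjusted p = 0.133). Cdc42, which drives filopodia, was at 33859 to 37465 in controls against 36151 to 38624 with FL-ApoE4, and differed on the log2 scale by 0.08 ± 0.06, or by 0.13 without control replicate 1. Rhoa, the contraction switch, differed by 0.0024 ± 0.05, with a 95% interval from -0.12 to 0.12 and a sign that changed between settings.

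The 4 genes of branched actin nucleation overlapped between groups. Arpc2 and Arpc5, subunits of the Arp2/3 complex, had log2 differences of 0.07 ± 0.05 and 0.08 ± 0.06. Wasf2, the WAVE protein that acts downstream of Rac, was at 13336 to 14446 normalised reads in controls against 13338 to 14188 with FL-ApoE4. Was, which encodes the Wiskott-Aldrich syndrome protein downstream of Cdc42, was at 2302 to 2557 and 2412 to 2588. Their log2 differences were 0.0012 ± 0.05 and 0.05 ± 0.06, within the spread of the libraries.

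Filament genes ranged from the highest to the lowest of the 40 levels per kb, and their spread between libraries from narrow, as in Tpm3, to wide, as in Tpm4 and Cnn2. Actb, which encodes beta-actin, was at 129011, 130197 and 142870 normalised reads in controls and at 145653, 141707 and 139305 with FL-ApoE4. Actg1, which encodes gamma-actin, was at 20670, 18949 and 20596 in controls and at 18883, 19037 and 18277 with FL-ApoE4. In both genes the groups overlapped, with log2 differences of 0.09 ± 0.06 and -0.10 ± 0.05 (limma adjusted p = 0.561 and 0.467). The ratio of Actb to Actg1 reads within a library did not overlap, at 6.24 to 6.94 in controls against 7.44 to 7.71 with FL-ApoE4. How often ratios of other gene pairs separate in this way was not examined, so no weight is put on it.

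The actin pair is shown because, within the coding sequences, reads of both genes can be told apart only by the bases that differ. The first 60 coding bases follow, with the 9 bases that differ in capitals (Actb on chromosome 5, Actg1 on chromosome 11).
Actb: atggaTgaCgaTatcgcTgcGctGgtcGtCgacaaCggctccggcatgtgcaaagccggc
Actg1: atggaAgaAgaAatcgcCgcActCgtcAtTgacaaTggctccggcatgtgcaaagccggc
The coding sequences were 88.7% identical over 1128 bases. Of the 50-base stretches of the Actg1 transcript 56.7% occurred in transcripts of other genes, most of them in the predicted gene Gm12715, and of those of Actb 14.2%. Tpm3 shared 62.4% with the copy Tpm3-rs7, Cfl1 19.1%, Rhoa 12.3%, Tpm4 12.1% and Lcp1 11.4% with other genes. How the authors counted reads that fit more than a single gene is not given in the sources used here, so levels of these 7 genes are uncertain.

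Tropomyosins wrap the filament and choose which proteins reach it. Tpm4 was at 26722 normalised reads in control replicate 1, at 15587 and 14349 in the other controls, and at 19775, 19356 and 18923 with FL-ApoE4. The treated libraries were tightly grouped between the controls. The log2 difference was 0.09 ± 0.21 (limma adjusted p = 0.908), and without control replicate 1 the gene rose by 0.37 (adjusted p = 0.0062). Tpm1 differed by -0.02 ± 0.05 and Tpm3 by 0.04 ± 0.04, each with overlapping groups.

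Myh9, the heavy chain of the main non-muscle myosin II, was at 30648, 33930 and 34501 normalised reads in controls and at 28658, 36299 and 33791 with FL-ApoE4. As with Tln1 and Flna, the replicates numbered 1 were low in both groups, and the log2 difference was -0.0098 ± 0.09. Cnn2, which encodes calponin 2, a filament stabiliser, was near the detection limit. It was at 8.48 to 14.2 normalised reads in controls against 9.27 to 17.8 with FL-ApoE4, and its 95% interval, from -0.62 to 0.97 on the log2 scale, allows changes in either direction.

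Regulators of actin turnover and membrane linkage were mostly close to control. Cfl1, the filament-severing cofilin, had a log2 difference of 0.03 ± 0.05, and Pfn1, the profilin that feeds monomers to growing ends, of 0.05 ± 0.06. In both genes FL-ApoE4 replicate 1 was the highest library, at 57746 normalised reads for Cfl1 and 48982 for Pfn1. Capg, which caps filament ends in macrophages, differed by -0.0039 ± 0.05, Coro1a, the coronin of leukocytes, by 0.03 ± 0.05, and Lcp1, the bundling protein L-plastin, by 0.0091 ± 0.06. Gsn, the calcium-dependent severing protein gelsolin, was at 11089, 11947 and 11269 normalised reads in controls and at 13017, 13031 and 11788 with FL-ApoE4. FL-ApoE4 replicate 3 lay among the controls, and the log2 fold change was 0.14 ± 0.06 (limma adjusted p = 0.364).

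Moesin and ezrin, which tie the plasma membrane to cortical actin, both had a high control replicate 1. Msn was at 41207, 34380 and 34712 normalised reads in controls and at 38580, 40471 and 40213 with FL-ApoE4, and differed on the log2 scale by 0.12 ± 0.08 (limma adjusted p = 0.559). Without control replicate 1, Msn rose by 0.20 (adjusted p = 0.0434). Ezr was at 7723, 4580 and 4195 in controls and at 4641, 4664 and 4929 with FL-ApoE4. The high control stood at 1.76-fold the others, and the log2 difference of Ezr was -0.16 ± 0.21 with all libraries and 0.11 without that control (limma adjusted p = 0.816 and 0.337).

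**Figure D4:**
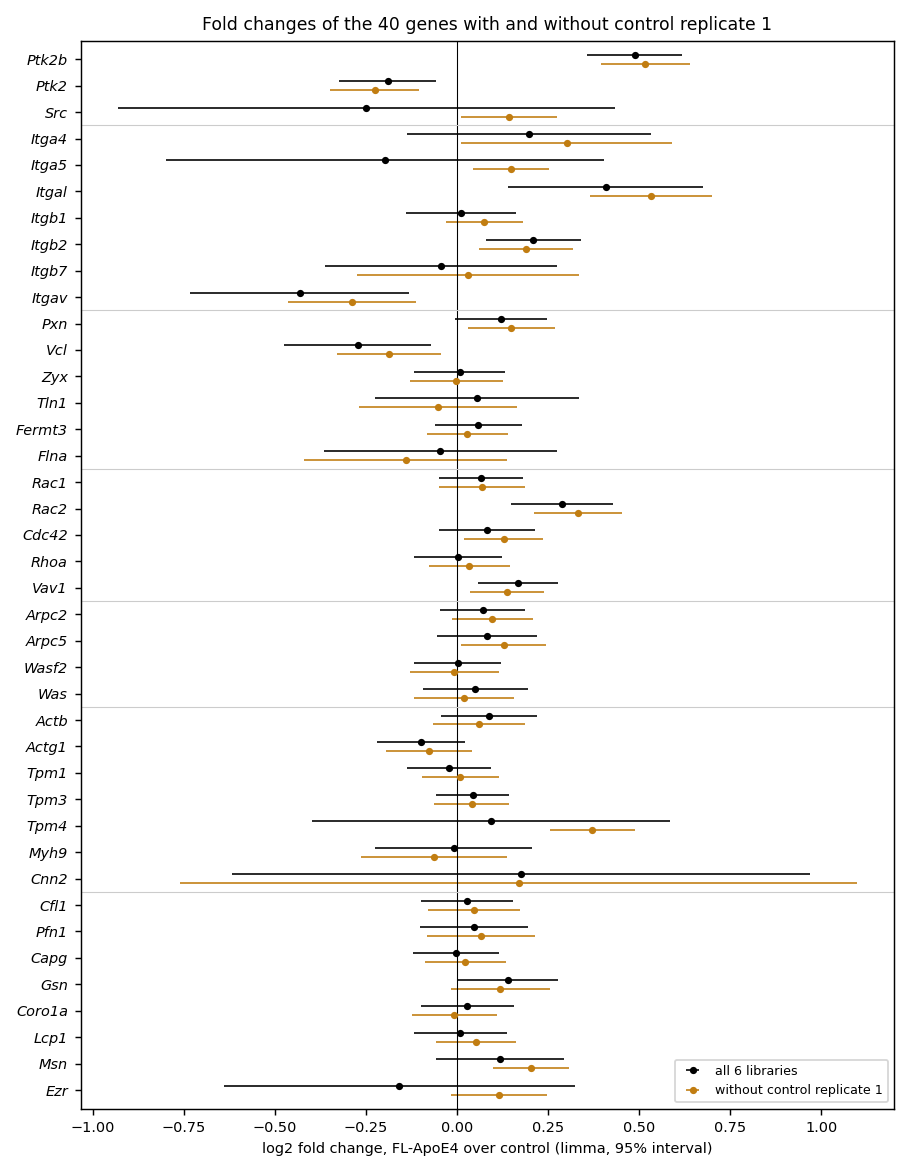
Log2 fold change of each gene, FL-ApoE4 over control, with its 95% interval from limma (not adjusted for the number of genes), for all 6 libraries (black) and without control replicate 1 (orange); grey lines divide roles. Intervals of Src, Itga5, Tpm4 and Ezr narrow and their estimates move upwards without that library, whereas Ptk2b stays at 0.49 and 0.52.

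With all 6 libraries the 95% interval of 24 of the 40 genes lay within 0.32 of zero on the log2 scale, and that of 33 within a 1.5-fold change in either direction. The other 7 reached past 1.5-fold: Ptk2b, Itgal and Cnn2 on the higher side, Itgav, Src, Itga5 and Ezr on the lower, and Cnn2 on the lower side as well. Intervals cover the spread between these libraries only.

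The order of levels was set out per kb of transcript, since raw reads scale with length. The length is that of a single transcript per gene, the one with the longest coding sequence, and another choice could change the order. All exons together span 11803 bases for Ptk2 and 9504 for Lcp1, against 4675 and 2523 in that transcript. In the control mean, Actb was at 69805 normalised reads per kb, Pfn1 at 50488 and Cfl1 at 46402, and Lcp1 followed at 25222. Capg at 21931 and Arpc2 at 21273 were neighbours whose control libraries overlapped. The kinases and the adaptors Zyx and Vcl lay low in the order: Ptk2b was number 33 of 40 at 1372, Zyx at 831, Ptk2 at 671, Src at 615 and Vcl at 579 normalised reads per kb. Src, with a control range of 422 to 980, overlapped Ptk2 and Vcl. Itgb7 at 96.7 and Cnn2 at 4.55 closed the order. With FL-ApoE4 Ptk2b was at 1924 normalised reads per kb, against 1210 for Itgav, which had been above it in the control mean at 1647.

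**Figure D5:**
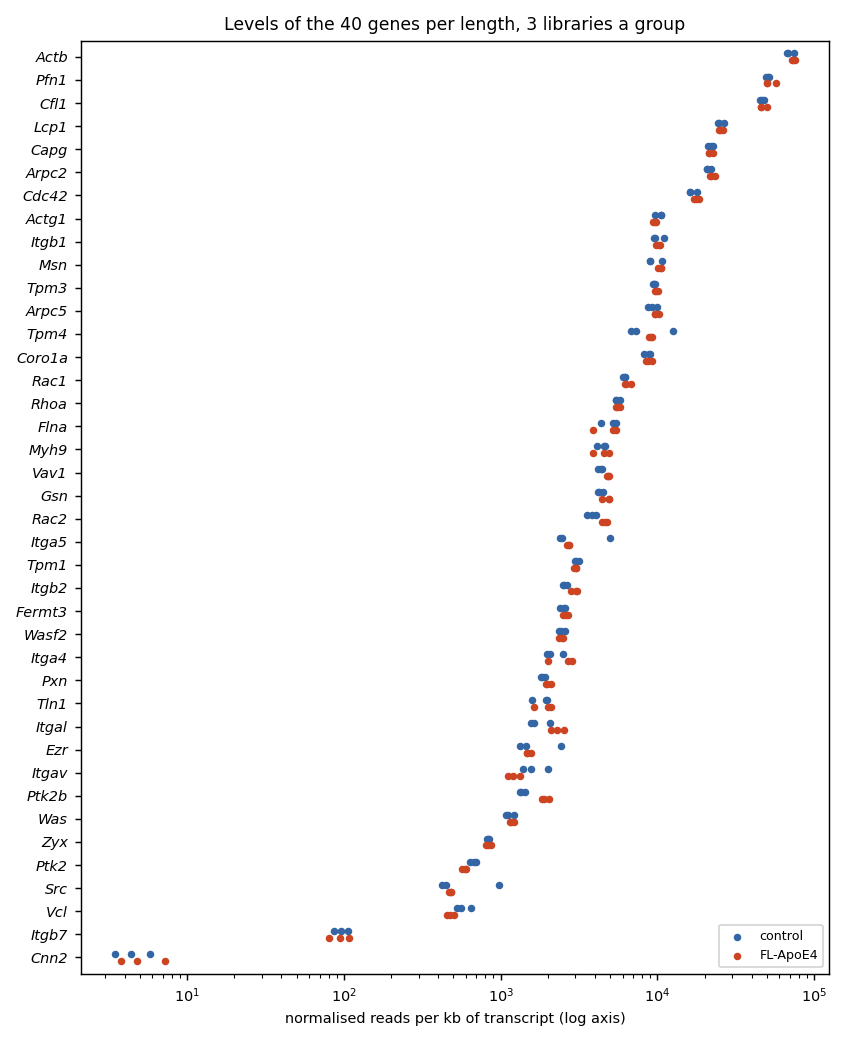
Normalised reads per kb of transcript (log axis) of the 40 genes in each library, 3 points a group, ordered by the control mean. Levels run from 4.55 for Cnn2 to 69805 for Actb in the control mean, and Ptk2b moves from 1372 to 1924.

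Promoters were searched for the CArG box, the binding motif of SRF, since this factor and its actin-sensing coactivators are known to drive many cytoskeletal genes. RefSeq promoters of build GRCm38.p6, from 250 bases before to 50 after the start, were available for 32 of the 40 genes, 38 promoters in all. The box was found in 3 of the 38, those of Vcl, Actg1 and Cnn2, and in 1.63% of all 32851 promoters of that length, with both strands searched. The windows below are shown because they hold those boxes, which are in capitals, and run 5′ to 3′ on the strand of the gene.
Vcl (chr14:20929148-20929210, plus strand): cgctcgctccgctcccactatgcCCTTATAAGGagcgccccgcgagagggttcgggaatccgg
Actg1 (chr11:120348546-120348615, minus strand): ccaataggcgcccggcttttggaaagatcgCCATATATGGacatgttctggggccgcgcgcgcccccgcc
Cnn2 (chr10:79988514-79988583, plus strand): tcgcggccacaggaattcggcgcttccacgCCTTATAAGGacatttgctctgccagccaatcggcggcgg
The estimates of the genes with the box were -0.27 for Vcl, -0.10 for Actg1 and 0.18 for Cnn2, on the log2 scale. Of the other motifs searched on both strands, TGANTCA (AP-1) was found in 2 of the 38 member promoters and in 7.81% of all promoters. GGGCGG (Sp1) was found in 30 of the 38 and in 35.7%, and GAGGAAG (PU.1) in 7 of the 38 and in 13.6%. A match is a description of these letters and not a bound site.

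Other genes of the pathway, 168 listed genes in 7 lists by function, were set beside the members. Of these, 150 passed the filter of a mean of 10 normalised reads. Limma called 0 of them, as did edgeR, and DESeq2 called 9, against 2.63% of all genes tested. An unadjusted p under 0.05 was found for 21 higher (14%, against 6.81% of all genes) and 7 lower (4.67%, against 6.33%), and the median log2 difference was 0.02. Without control replicate 1, 14 rose and 2 fell by limma, or 9.33% and 1.33%, against 2.93% and 1.69% of all genes.

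Src-family kinases and their regulators held 5 higher and 2 lower genes of 15 at an unadjusted p under 0.05. Ptpn6, the phosphatase SHP-1 that opposes these kinases, was at 12978 ± 981 normalised reads in controls against 17039 ± 659 with FL-ApoE4 (mean ± SD, n = 3), and Fyb, the adaptor that couples receptors to integrin activation, at 9873 ± 2063 and 15855 ± 665. Yes1, a kinase of the Src family, had a log2 fold change of -0.40 ± 0.13 and the phosphatase gene Ptpn12 of -0.22 ± 0.08, the latter -0.13 without control replicate 1. Without control replicate 1, 5 of the 15 rose by limma, among them Fyb by 0.87 (adjusted p = 0.00049), Syk by 0.42 (adjusted p = 0.011), Lyn by 0.42 (adjusted p = 0.00357) and Ptpn6 by 0.33 (adjusted p = 0.00961). Lyn and Syk, kinases of myeloid cells, were named after their values were seen.

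Among other focal adhesion adaptors, Evl, which speeds filament elongation, was at 433 ± 44.3 normalised reads in controls against 657 ± 45.1 with FL-ApoE4. Bcar1, which encodes p130Cas, a substrate of FAK and Src, was at 370 ± 66.2 and 207 ± 14.4. Pak1, a kinase downstream of Rac, had a log2 fold change of 0.18 ± 0.07, which was 0.12 without control replicate 1, and the paxillin relative Tgfb1i1 of -0.69 ± 0.35. Evl rose by 0.56 and Bcar1 fell by 0.69 without control replicate 1 (limma adjusted p = 0.0172 and 0.0127). Of 34 tested genes in that list, 2 were higher and 1 lower at an unadjusted p under 0.05.

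Of 20 other subunits of the Arp2/3, WASP and WAVE complexes, 1 had an unadjusted p under 0.05. This was Abi3, a WAVE complex subunit of myeloid cells, at 1195 ± 44.4 normalised reads in controls against 1695 ± 111 with FL-ApoE4, a log2 fold change of 0.50 ± 0.07 and a limma adjusted p of 0.0892. The size of that difference was near that of Ptk2b, and Abi3 rose by 0.49 without control replicate 1 (adjusted p = 0.00803). Wipf1, Arpc5l and Nck1 had log2 differences of 0.32 ± 0.18, -0.14 ± 0.07 and -0.26 ± 0.17. Without control replicate 1, Wipf1 was at 0.11 and Nck1 at -0.04 on that scale, and control replicate 1 stood at 0.642-fold and 1.57-fold the other controls in these genes.

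Actin-binding proteins outside the member list held 7 higher and 0 lower genes of 39 at an unadjusted p under 0.05. Twf2, which encodes the monomer-binding protein twinfilin 2, was at 3131 ± 171 and 3836 ± 130 normalised reads, and Tmsb4x, the monomer store thymosin beta 4, at 39968 ± 347 and 45643 ± 2691. The formin gene Diaph1 and the kinase gene Rock2, both effectors of RhoA, had log2 differences of -0.13 ± 0.06 and -0.15 ± 0.08, and Diaph1 was at -0.09 without control replicate 1. Twf2 rose by 0.25 without control replicate 1 (limma adjusted p = 0.0342).

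Of 25 other small GTPases and regulators, 4 were higher and 3 lower at an unadjusted p under 0.05. Arhgap25, a GTPase-activating protein for Rac in phagocytes, was at 1019 ± 200 normalised reads in controls against 1801 ± 142 with FL-ApoE4, and Rhoh, a GTPase relative of blood cells, at 34.2 ± 1.75 and 55.4 ± 3.28. Rnd1, which opposes RhoA, was at 792 ± 277 and 427 ± 32.2, and Rhob at 4361 ± 1445 and 3029 ± 61.5. Control replicate 1 lay above the other controls by 0.81 (log2) for Rnd1 and by 0.77 for Rhob. Without it Arhgap25 rose by 0.67 and Rnd1 fell by 0.57 (limma adjusted p = 0.00307 and 0.00964), whereas Rhob missed the threshold (log2 fold change -0.22, adjusted p = 0.0798).

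Other integrin subunits held 1 higher and 1 lower gene of 14 at an unadjusted p under 0.05. Itgb4 was at 48.8 ± 5.61 and 69.7 ± 6.39 normalised reads, and Itgad at 59.8 ± 5.16 and 42.6 ± 5.49. Itgae and Itga11, also at low levels, had log2 differences of 0.11 ± 0.12 and -0.90 ± 0.39. Of SRF and its coactivators, Mrtfa differed by 0.26 ± 0.11, Srf by -0.08 ± 0.05 and Mrtfb by -0.06 ± 0.23 on the log2 scale, none of which was called. When control replicate 1 was left out, Mrtfa differed by 0.13 and Mrtfb by -0.20, and Mrtfb ranged from -0.23 to 0.18 with each library left out in turn.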

How the data were processed

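Total RNA of 6 BV2 samples was sequenced from libraries made with a directional kit, per the labels' protocols. The submitters' processing notes name HISAT2 2.2.1, HTSeq, FastQC 0.11.8, DESeq2 1.30.1 and the build GRCm39, without roles or settings. Whether counting used strand is not stated there, which leaves genes that overlap or lie antisense uncertain. In the deposited table each gene has a signal per library, in normalised reads. Dividing a column by its smallest value gave whole numbers (tolerance 0.01), taken as recovered reads. The authors' deposited statistics list log2 fold changes with a raw p-value and an adjusted one.

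In R 4.3.3, limma 3.58.1 (trended variance) was fitted on log2(value + 1) for the 14079 genes with a mean of at least 10 over the 6 libraries, with group as the only term. Tests were two-sided and Benjamini-Hochberg adjusted p-values were held to 0.05. The added 1 shrinks the fold changes of low genes. All 40 members passed the filter. As alternatives, recovered reads were tested with edgeR 4.0.16 (TMM, quasi-likelihood) and with DESeq2 1.42.0. The fits were tested on simulated data with the same dispersion for every gene and no departing library. That test does not cover departures such as those of the replicates numbered 1. Transcript lengths and 50-base stretches came from GENCODE M21 (GRCm38), a build other than the authors'. Members and lists were chosen with earlier results of these data known. The text names all members and, per list, up to 2 genes of lowest p in each direction. edgeR and DESeq2 without control replicate 1 were added after the data were seen. Some results of the pathway lists and some sequences are not reported here.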

Additional observations from a re-analysis of the deposited data

How the results depend on the processing

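Over 18 alternatives (pseudocounts of 0.5 and 5, filters, scalings, limma variants, other tools, the replicate block, and libraries left out in turn), 21 of the 40 members kept the sign of their log2 fold change in every one, Ptk2b, Ptk2, Itgal, Itgb2, Itgav, Vcl, Rac2 and Vav1 among them. No single setting other than the loss of control replicate 1, and DESeq2, led to a call of a member. The count of called members was 0 to 5 with a library left out, that of pathway list genes 0 to 16 and that of all genes 0 to 651, the highest in each case without control replicate 1. DESeq2 called 3, 9 and 370 with all libraries, and 7, 24 and 959 without control replicate 1, where edgeR called 6, 17 and 691. A filter that kept every gene with a mean above 0 called 1 gene, not a member, and a minimum mean of 50 left Cnn2 untested. The replicate block called 0 members, 0 pathway list genes and 0 of all genes, with an adjusted p of 0.183 for Ptk2b. Deviations of same-numbered libraries correlated at 0.13, 0.07 and -0.03, and control replicate 3 correlated best with FL-ApoE4 replicate 2, so the numbers were not taken to pair samples.

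With a library left out, log2 fold changes that changed sign ranged from -0.47 to 0.14 for Src, -0.38 to 0.15 for Itga5, -0.33 to 0.11 for Ezr, -0.077 to 0.37 for Tpm4, -0.064 to 0.37 for Cnn2, -0.14 to 0.10 for Flna, -0.052 to 0.16 for Tln1, -0.084 to 0.087 for Myh9 and -0.14 to 0.066 for Itgb7. Ranges within 0.08 of zero were -0.026 to 0.075 for Itgb1, -0.019 to 0.033 for Zyx, -0.028 to 0.033 for Rhoa, -0.023 to 0.034 for Wasf2, -0.043 to 0.0086 for Tpm1, -0.017 to 0.050 for Cfl1, -0.018 to 0.078 for Pfn1, -0.034 to 0.023 for Capg, -0.0075 to 0.054 for Coro1a and -0.017 to 0.051 for Lcp1. Sign also changed with DESeq2 for Rhoa (-0.0014) and Wasf2 (-0.0028), with equal library totals for Myh9 (0.0052) and Capg (0.011), and with quantile normalisation for Tpm1 (0.0076), Myh9 (0.012) and Capg (0.011). The cause of these changes was not tested.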
